A study of Mus musculus with 14 samples.

Results

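The enzymes described here make and break down eicosanoids, the signalling lipids derived from arachidonic acid. The group holds 10 genes out of 24463 gene symbols measured. They were chosen by name and not by a rule on their values, though with earlier results of these data known. They include the cyclooxygenases Ptgs1 and Ptgs2, the prostaglandin E synthases Ptges, Ptges2 and Ptges3, the prostaglandin D synthase Hpgds and the thromboxane synthase Tbxas1. The others are the prostaglandin dehydrogenase Hpgd, and 5-lipoxygenase (Alox5) with its partner protein Alox5ap. All 10 symbols were present in each of 14 RNA-seq libraries. The cells were mouse leukemic stem cells (LSCs) of a BCR-ABL model of chronic myeloid leukemia, sorted as lineage-negative, c-Kit+, Sca1+ and GFP+. Levels are FPKM, fragments per kilobase of gene model and per unit of library depth, so that levels of different genes can be set side by side.

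The study asked how loss of Tcf1 and Lef1, a pair of Wnt-pathway transcription factors, and exposure to prostaglandin E change the LSC transcriptome. Every group started as lineage-negative bone marrow that was transduced at 0 and 24 h with retrovirus carrying p210 BCR-ABL and sorted at 48 h, after culture in medium with serum (15%), thrombopoietin (20 ng/ml) and stem cell factor (50 ng/ml). Untreated LSCs came from Tcf1/Lef1-deficient marrow (dKO, 3 libraries) or from wild-type marrow (WT, 3 libraries). LSCs from control marrow were exposed for 6 h to 20 µM prostaglandin E1 (PGE1, 3 libraries), to 20 µM prostaglandin E2 (PGE2, 2 libraries) or to the vehicle dimethyl sulfoxide (DMSO, 3 libraries). Neither the Cre line, the exons removed nor the age of the mice is stated in the labels used here. No label says that replicates came from separate mice or cultures, so the p-values measure the spread between these libraries, which may be technical. The genotype field of dKO replicate 1 reads wild type and that of DMSO replicate 1 reads Tcf1/Lef1-deficient, against their titles, and the titles were followed.

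Cyclooxygenases turn arachidonic acid into prostaglandin H2, and terminal synthases then convert that intermediate into prostaglandin E2, prostaglandin D2 or thromboxane A2. Ptgs1 is the form present at rest in most cells and Ptgs2 the form induced by many stimuli; Hpgd starts the inactivation of E-series prostaglandins. In the other branch Alox5, presented with arachidonic acid by Alox5ap (also called FLAP), makes the precursor of the leukotrienes, mainly in myeloid cells, and Alox5 has been studied as a gene that BCR-ABL LSCs depend on in mice.

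The upstream sequences of 4 members are shown because these genes split into opposite directions under PGE1, Ptgs1 and Tbxas1 lower and Ptgs2 and Alox5 higher. RefSeq promoters (build GRCm38.p6) were available for 9 of the 10 members, Alox5ap being the member without an entry. Each line gives the 250 bases before the start of the gene, 5′ to 3′ on the strand of the gene. Matches to the searched motifs are in capitals. They are a GC box in Ptgs2 and Alox5, and an AP-1 site followed by a TATA box in Tbxas1. Ptgs1 had no match. Ptges3, lower under PGE1 and not among the sequences shown, also held GC boxes, and Ptges2, lower too, had no match. Whether a motif goes with direction was not tested. The windows are chr2:36230176-36230425 (+) for Ptgs1, chr1:150099781-150100030 (+) for Ptgs2, chr6:38918736-38918985 (+) for Tbxas1 and chr6:116461179-116461428 (−) for Alox5.
Ptgs1: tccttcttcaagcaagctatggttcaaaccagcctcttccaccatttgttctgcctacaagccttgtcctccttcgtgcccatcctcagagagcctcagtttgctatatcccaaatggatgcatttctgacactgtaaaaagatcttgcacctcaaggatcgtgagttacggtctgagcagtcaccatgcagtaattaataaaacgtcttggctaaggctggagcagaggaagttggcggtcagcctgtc
Ptgs2: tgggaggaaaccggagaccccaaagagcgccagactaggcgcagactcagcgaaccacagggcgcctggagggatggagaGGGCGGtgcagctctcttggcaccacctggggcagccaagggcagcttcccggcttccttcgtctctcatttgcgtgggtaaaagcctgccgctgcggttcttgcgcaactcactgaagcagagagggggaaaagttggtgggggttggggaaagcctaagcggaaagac
Tbxas1: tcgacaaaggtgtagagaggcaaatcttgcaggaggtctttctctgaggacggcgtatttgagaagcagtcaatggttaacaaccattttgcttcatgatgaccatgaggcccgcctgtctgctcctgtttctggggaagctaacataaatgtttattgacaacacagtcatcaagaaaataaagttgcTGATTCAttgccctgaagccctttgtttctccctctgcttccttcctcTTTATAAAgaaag
Alox5: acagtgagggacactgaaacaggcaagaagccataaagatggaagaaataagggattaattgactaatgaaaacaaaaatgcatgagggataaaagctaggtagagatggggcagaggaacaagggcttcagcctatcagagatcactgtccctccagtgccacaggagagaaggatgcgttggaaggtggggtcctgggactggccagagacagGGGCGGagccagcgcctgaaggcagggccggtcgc
A CRE half-site, the short form of the element bound by CREB, starts 14 bases after the RefSeq start of Ptgs2. It is in capitals in the stretch below. Ptges3, lower under PGE1, held the same half-site 12 bases after its own RefSeq start. Other starts of these genes were not examined.
Ptgs2 start: gtcaccactaCGTCAcgtggagtcc

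Motifs were searched on both strands of the full 300-base windows, which run 50 bases past the start. The CRE half-site TGACG was present in 20.8% of 32851 promoters of that length, and the full CRE TGACGTCA, which contains it, in 1.79%. The AP-1 site TGANTCA was in 7.81%, the Tcf/Lef motif CTTTGA in 16.0%, the TATA box TATAAA in 13.6% and the GC box GGGCGG in 35.7%. Of the 9 member promoters, none held CTTTGA or the full CRE in its window, and Tbxas1 alone held the AP-1 site, 61 bases upstream. Guanine and cytosine made up 61.6% of the Ptgs2 window, 52.8% of Alox5, 48.0% of Ptgs1 and 43.6% of Tbxas1. For Ptges3 and Ptges2, both lower under PGE1, the values were 73.2% and 57.6%. The median over all promoters was 52.4%. These matches describe letters in the reference and not binding.

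Whole reads were recovered from the FPKM values, with a limit given under the processing of the data. Libraries held 31.3 to 33.8 M reads in untreated cells and 19.0 to 22.7 M in treated cells. The genes of the sort and the deleted genes were checked first. Kit averaged 23.0 FPKM in dKO and 28.0 in WT cells, and 42.2 in PGE1, 23.0 in PGE2 and 26.1 in DMSO cells. Ly6a, which encodes Sca1, averaged 3.12 in dKO and 11.3 in WT cells, and 13 in PGE1, 12.7 in PGE2 and 14.9 in DMSO cells. Tcf7, the gene of Tcf1, ran between 0.0219 and 0.142 FPKM in dKO and between 1.15 and 1.48 in WT libraries, and Lef1 between 0.105 and 0.184 in dKO and between 0.223 and 0.319 in WT libraries. In treated cells Tcf7 averaged 6.66 FPKM with PGE1 and 0.845 with PGE2, and it ran between 0.85 and 1.53 in the DMSO libraries, all above the dKO range. Among the 8 treated libraries, PGE1 replicate 2 was least like the others of its group (mean Pearson r of 0.979 over 11078 genes), and DMSO replicate 1 was the least like within its own group (0.991). DMSO replicates 2 and 3 were close to it, at 0.993 and 0.992. PGE1 replicates 1 and 3 both stood at 0.983, below every DMSO library. Results on treated cells were also computed without PGE1 replicate 2 and DMSO replicate 1.

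The members were spread over the whole range of expression. Alox5ap had the highest level of the 10 in each group, with 98.4% (dKO) to 99.7% (PGE1) of all genes below it. Ptges3, Ptgs1, Tbxas1 and Alox5 lay between 11.6 and 33.6 FPKM in each group mean, and Ptges2 between 5.70 and 10.01. Group means ran between 0.375 and 2.50 FPKM for Hpgds and between 0.365 and 9.77 for Ptgs2, while Ptges and Hpgd reached at most 0.511 and 0.107 FPKM in any of the 14 libraries.

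**Figure D1:**
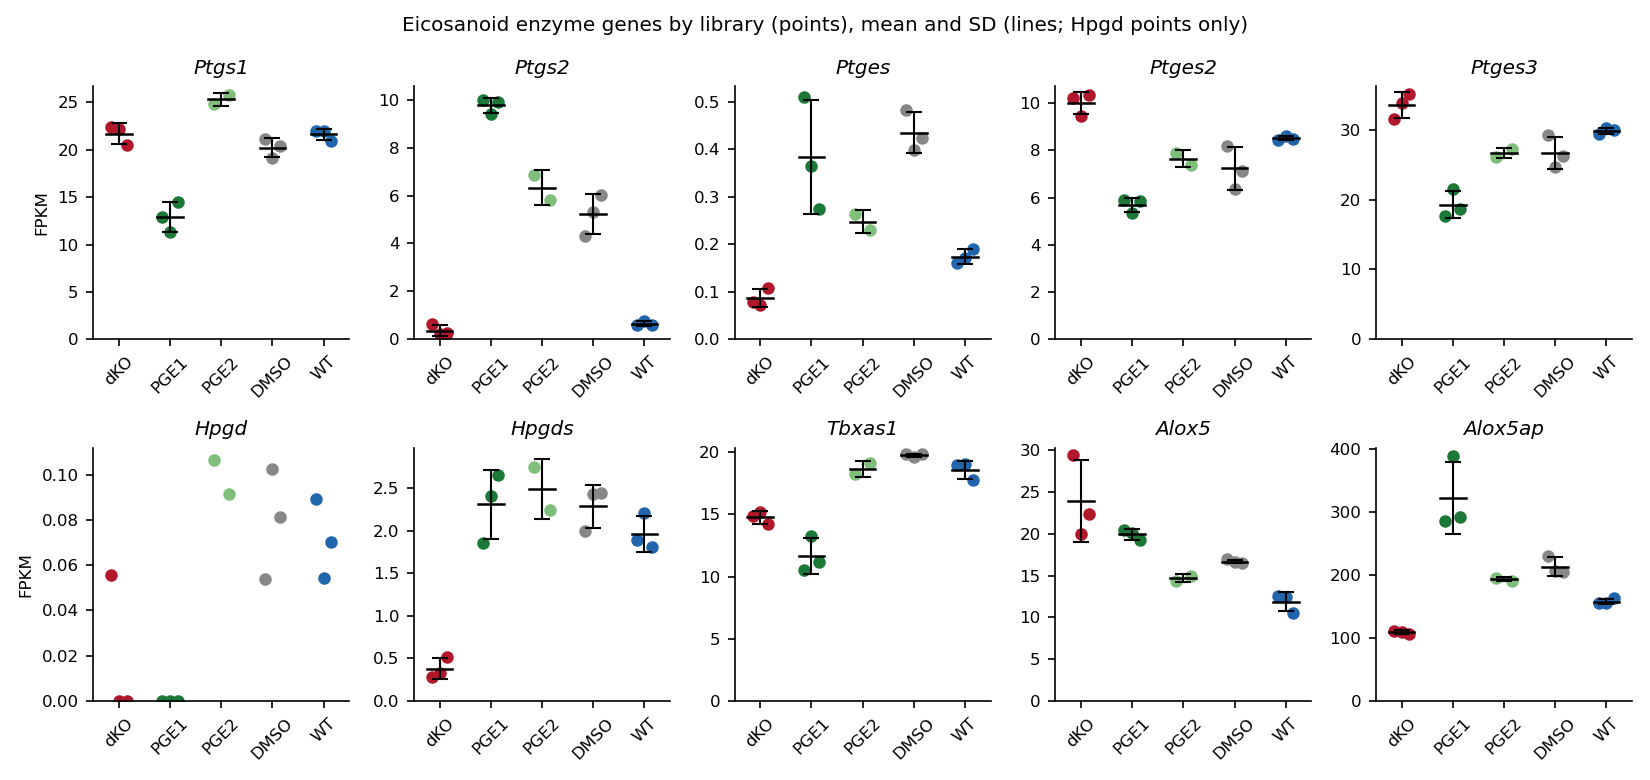
FPKM of the 10 enzyme genes (vertical axes, 1 scale per gene, each starting at 0) in the libraries of dKO, PGE1, PGE2, DMSO and WT cells; points are libraries and lines the mean and SD, with points alone for Hpgd. Ptgs2 averaged 9.77 FPKM in PGE1 and 5.22 in DMSO cells, Hpgds 0.375 in dKO and 1.97 in WT cells.

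In dKO against WT cells, 3 members were higher (Alox5, Ptges2, Ptges3) and 3 lower (Hpgds, Alox5ap, Tbxas1) of the 7 members that reached the tested minimum of 1 FPKM on average, at an adjusted p under 0.05 by limma on log2(FPKM + 1). Of all 10721 genes tested there 40.9% were called, 18% higher and 22.9% lower, so the members' share of calls is read against a high background. Of all calls 44.1% were higher, and this share was 60.2% under quantile normalization, 56.2% under median-of-ratios scaling and 54.7% with a minimum of 5 FPKM. In PGE1 against DMSO cells, 3 members were higher (Ptgs2, Alox5, Alox5ap) and 4 lower (Ptgs1, Ptges2, Ptges3, Tbxas1) of 8 tested, against 49.1% of all genes called (23.6% higher and 25.5% lower). PGE2 against DMSO gave 0 calls among 8 members tested by limma, while 2 had an unadjusted p under 0.05 (Ptgs1 and Alox5), limma-voom on recovered reads called 0, and 5.57% of all genes were called (0.996% higher and 4.57% lower). The 2 prostaglandin comparisons share the DMSO libraries. PGE1 against PGE2 gave 3 higher and 4 lower members of 8, against 53.9% of all genes called (27.2% higher and 26.7% lower). DMSO against WT gave 3 higher (Ptgs2, Alox5, Alox5ap) and 1 lower (Ptges2, a call lost in 5 of 6 runs that left out 1 library) of 8, against 56.6% of all genes called (26% higher and 30.7% lower). The median log2 difference over the members tested was 0.00 in dKO against WT, −0.14 in PGE1 against DMSO and 0.04 in PGE2 against DMSO, while over all genes it was −0.009, 0.006 and 0.005 in that order of comparisons. Groups did not overlap for 6 of 7 tested members in dKO against WT (54.9% of all genes), 7 of 8 in PGE1 against DMSO (57.2%), 4 of 8 in PGE2 against DMSO (49.1%), 7 of 8 in PGE1 against PGE2 (69.9%) and 6 of 8 in DMSO against WT (64.3%).

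**Figure D2:**
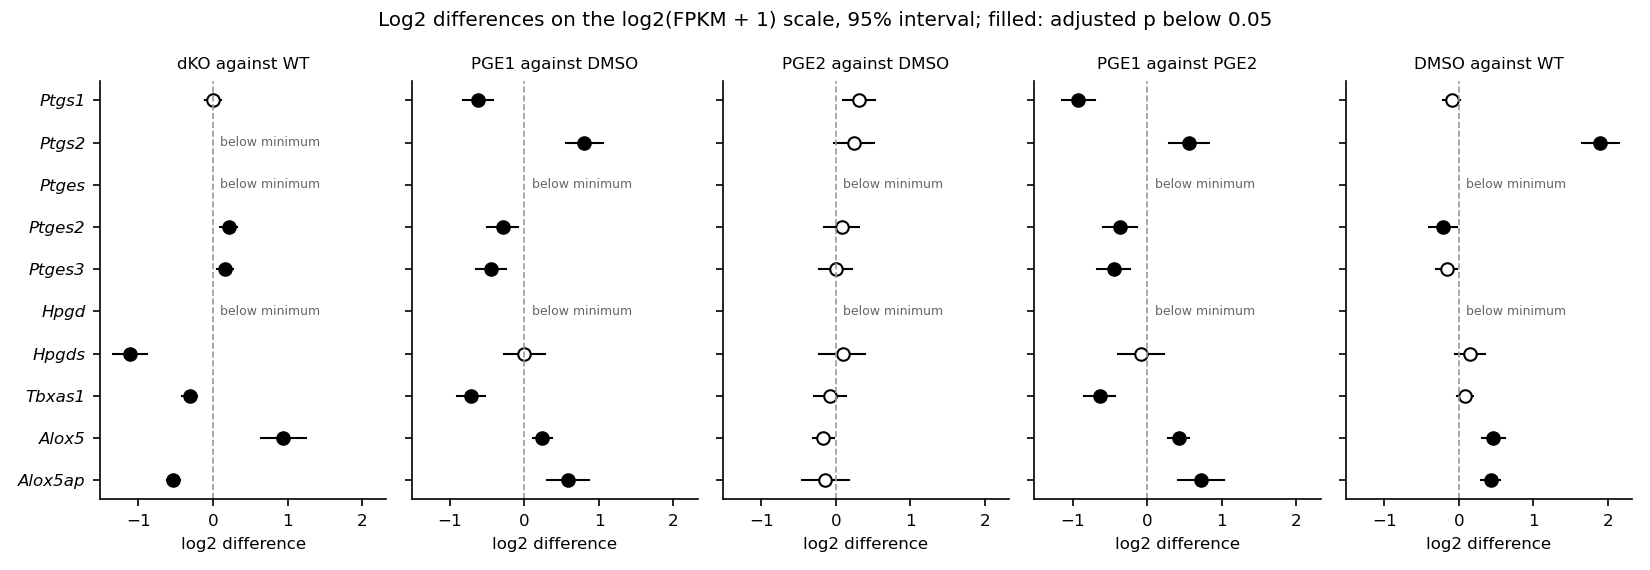
Log2 differences of the members (horizontal axis, log2(FPKM + 1) scale) with 95% intervals in 5 comparisons; filled points passed an adjusted p of 0.05 and members under the tested minimum are marked. Hpgds lay at −1.11 in dKO against WT and at 0.00 in PGE1 against DMSO, and Ptgs2 at 0.80 in PGE1 against DMSO.

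The 2 cyclooxygenase genes moved in opposite directions under PGE1. Ptgs2 measured 9.99, 9.42 and 9.91 FPKM in PGE1 cells, 6.84 and 5.81 in PGE2 cells, and 4.33, 5.33 and 6.01 in DMSO cells. Each PGE1 library stood above each library of the other 2 treated groups, and PGE2 and DMSO libraries overlapped. Ptgs2 was 1.87-fold higher in PGE1 than in DMSO cells (log2 difference 0.80, SE 0.11, limma adjusted p = 0.000379). Ptgs1 measured 12.9, 11.3 and 14.5 FPKM in PGE1 cells, 24.9 and 25.8 in PGE2 cells, and 21.1, 19.2 and 20.4 in DMSO cells. The PGE1 libraries were the lowest and the PGE2 libraries the highest, with no overlap between the 3 groups. Ptgs1 fell by 0.62 on the log2 scale in PGE1 against DMSO cells (SE 0.09, limma adjusted p = 0.000533). In PGE2 against DMSO cells it differed by 0.31 (95% interval 0.09 to 0.53), with a limma adjusted p of 0.114 that became 0.0289 without PGE1 replicate 2, a library that bears on this comparison through the shared estimate of spread.

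In dKO against WT cells neither cyclooxygenase gene differed beyond its spread. Ptgs1 measured 22.45, 22.23 and 20.47 FPKM in dKO cells and 21.97, 22 and 20.96 in WT cells, with a log2 difference of 0.00 whose 95% interval ran between −0.11 and 0.11. Ptgs2 was low in both, with 0.631, 0.219 and 0.244 FPKM in dKO cells and 0.612, 0.755 and 0.602 in WT cells. These Ptgs2 values rest on 157 reads in dKO and 286 in WT libraries, and dKO replicate 1 lay within the WT range (two-sided exact permutation p = 0.3, where 0.1 is the smallest that 3 against 3 libraries allow). In DMSO against WT cells Ptgs2 was 7.96-fold higher (log2 difference 1.90, SE 0.11, limma adjusted p = 5.53e-06), and it reached the tested minimum there only through the DMSO libraries. The vehicle, the further 6 h and whatever else separates the treated from the untreated set of libraries, depth included, cannot be told apart in that comparison. As a share of Ptgs1 and Ptgs2 FPKM together, Ptgs2 made up 40.6% to 45.6% in PGE1, 18.4% to 21.6% in PGE2, 17.0% to 22.7% in DMSO, 0.97% to 2.73% in dKO and 2.71% to 3.32% in WT libraries. In order of level, Ptgs2 ran highest in PGE1, then PGE2 and DMSO, which overlapped, then WT and dKO, which overlapped too. In RNA from a whole sorted population, fewer cells of a type and less RNA per cell cannot be told apart, here and in all results that follow.

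**Figure D3:**
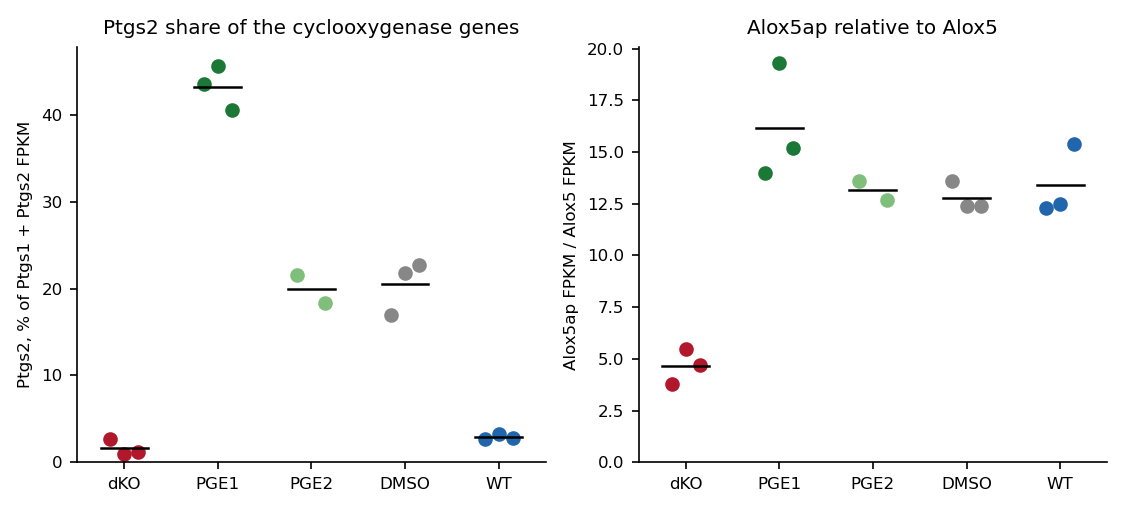
Left, Ptgs2 as a percentage of Ptgs1 plus Ptgs2 FPKM; right, Alox5ap FPKM divided by Alox5 FPKM; points are libraries of dKO, PGE1, PGE2, DMSO and WT cells and lines are means. The Ptgs2 share stood at 40.6% to 45.6% in PGE1 against 17.0% to 22.7% in DMSO libraries, and the Alox5ap to Alox5 ratio at 3.79 to 5.49 in dKO against 12.3 to 15.4 in WT libraries.

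The 3 prostaglandin E synthases differ in place and regulation: Ptges is the inducible microsomal enzyme that commonly acts with Ptgs2, Ptges2 is a second membrane-associated enzyme, and Ptges3, the cytosolic form, is also p23, a co-chaperone of Hsp90. Ptges2 and Ptges3 were a little higher in dKO than in WT cells and lower in PGE1 than in DMSO cells. Ptges3 measured 31.6, 33.9 and 35.2 FPKM in dKO cells, 17.7, 21.5 and 18.7 in PGE1 cells, 26.2 and 27.3 in PGE2 cells, 29.2, 24.7 and 26.3 in DMSO cells, and 29.4, 30.2 and 30.0 in WT cells. All dKO libraries lay above all WT libraries, and all PGE1 libraries below all DMSO libraries. Ptges3 rose by 0.16 in dKO cells on the log2 scale (SE 0.05, limma adjusted p = 0.0265) and fell by 0.45 in PGE1 cells (SE 0.09, limma adjusted p = 0.00278). The dKO call ended without any 1 of 5 of the 6 libraries, dKO replicate 1 being the exception (adjusted p = 0.0652 to 0.0915). Ptges3 has processed pseudogenes with long near-identical stretches (Ptges3-ps, 100% over 480 bases; Gm11893, 94.3% over 495 bases), and the handling of shared reads is not stated in the labels, so its level is uncertain.

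Ptges2 measured 10.2, 9.47 and 10.3 FPKM in dKO cells and 8.45, 8.61 and 8.48 in WT cells. The groups did not overlap, and the log2 difference was 0.21 (SE 0.05, limma adjusted p = 0.0114). Under treatment Ptges2 measured 5.89, 5.36 and 5.85 FPKM in PGE1 cells, 7.91 and 7.40 in PGE2 cells, and 8.20, 6.38 and 7.13 in DMSO cells. The PGE1 libraries were again lowest, while those of PGE2 fell inside the DMSO range. The fall of 0.29 in PGE1 against DMSO cells (SE 0.09, limma adjusted p = 0.0265) lost its call without DMSO replicate 1 (adjusted p = 0.0845), DMSO replicate 3 (0.0644) or PGE1 replicate 2 (0.0546), and without DMSO replicate 1 and PGE1 replicate 2 together (0.0949). Ptges, the inducible synthase, was near the limit of detection, with 0.0789, 0.0730 and 0.108 FPKM in dKO cells and 0.160, 0.171 and 0.190 in WT cells. The 31 dKO and 62 WT reads gave groups that did not overlap, at the smallest p the exact permutation test allows (p = 0.1); limma with no filter on low values called this difference (adjusted p = 0.0113). In treated cells Ptges ran between 0.274 and 0.511 FPKM with PGE1, at 0.265 and 0.230 with PGE2, and between 0.399 and 0.483 with DMSO. PGE1 libraries spanned the DMSO range (exact permutation p = 0.5), and both PGE2 libraries lay below it (exact permutation p = 0.2, the smallest for 2 against 3 libraries).

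Hpgds, the glutathione-dependent prostaglandin D synthase known from mast cells and megakaryocytes, showed the largest fold difference among the members tested in dKO against WT cells. It measured 0.281, 0.332 and 0.513 FPKM in dKO cells and 1.888, 2.204 and 1.802 in WT cells. All dKO libraries lay far below all WT libraries, with 122 dKO reads against 633 WT reads. The level in dKO cells was 5.23-fold lower (log2 difference −1.11, SE 0.10, limma adjusted p = 0.000127), and Hpgds reached the tested minimum there only through the WT libraries. It fell under that minimum, and was not tested, without WT replicate 2. Under treatment Hpgds measured 1.86, 2.41 and 2.65 FPKM in PGE1 cells, 2.74 and 2.25 in PGE2 cells, and 1.997, 2.43 and 2.437 in DMSO cells. The 3 treated groups overlapped. The log2 difference was 0.00 in PGE1 against DMSO cells (95% interval −0.27 to 0.28) and 0.09 in PGE2 against DMSO cells (limma adjusted p = 0.77).

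Many marker lists were lower in the dKO libraries, where 22.9% of all genes tested were called lower. Stem and progenitor markers were lower for 6 of 6 tested, erythroid markers for 4 of 6, and dendritic cell and MHC class II markers for 3 of 4. None of these 3 lists had a higher gene. Neutrophil and eosinophil markers split, and the B lymphoid list and the T and NK cell list had 1 higher and 0 lower each. Of 10 megakaryocyte and platelet markers tested, 10 were lower in dKO cells, and their summed level was 57.7 to 112 FPKM in dKO against 241 to 263 in WT libraries. Mast cell and basophil markers were lower for 6 of 8 tested, with sums of 102 to 110 FPKM in dKO against 168 to 173 in WT libraries. In PGE1 cells 6 of 9 mast cell markers were higher and 1 lower, with sums of 305 to 390 FPKM against 223 to 246 in DMSO libraries, while Hpgds did not differ beyond its spread. In that comparison 23.6% of all genes tested were called higher and 25.5% lower. No gene of the megakaryocyte or mast cell list was at 0 in all libraries. Gp6, Mcpt4 and Tpsab1 were below 1 FPKM throughout. The part of these cell types in the Hpgds result was not tested.

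Tbxas1, the cytochrome P450 that makes thromboxane A2 and is best known from platelets and macrophages, was lower in both dKO and PGE1 cells than in their controls. It measured 14.8, 15.2 and 14.2 FPKM in dKO cells and 19.0, 19.0 and 17.8 in WT cells. In treated cells the values were 10.5, 13.3 and 11.1 FPKM with PGE1, 18.2 and 19.1 with PGE2, and 19.9, 19.6 and 19.8 with DMSO. Neither pair overlapped, and the PGE2 libraries lay just under the DMSO range. The fall was 0.31 in dKO against WT cells (SE 0.05, limma adjusted p = 0.00147) and 0.72 in PGE1 against DMSO cells (SE 0.08, limma adjusted p = 0.000158). Monocyte and macrophage markers were lower for 11 of 12 in dKO cells, with sums of 470 to 578 FPKM in dKO against 1200 to 1260 in WT libraries. In PGE1 cells 7 of the 12 were lower and 2 higher, with sums of 1080 to 1390 FPKM that overlapped the 1140 to 1370 of DMSO libraries. Of 10 megakaryocyte and platelet markers tested, 4 were higher and 2 lower in PGE1 cells. Their sums were 311 to 422 FPKM in PGE1 and 268 to 324 in DMSO libraries. Over all genes tested there, 23.6% were called higher and 25.5% lower. No gene of either list was at 0 in all libraries, and the part of these lists in the result was not tested.

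Hpgd, the 15-hydroxyprostaglandin dehydrogenase that inactivates prostaglandins E1 and E2, was barely detected. The libraries held 3, 0 and 0 Hpgd reads in dKO cells, 0 in each PGE1 library, 4 and 3 in PGE2 cells, 2, 4 and 3 in DMSO cells, and 5, 3 and 4 in WT cells. PGE1 was the single group with no read in any library. Pooled over libraries, 9 DMSO reads gave 0.0797 FPKM (exact Poisson 95% interval 0.0365 to 0.151, counting error only) and 12 WT reads gave 0.0714. The pooled DMSO level was 2.86-fold above a floor of 3 reads over the PGE1 group (0.0279 FPKM), which is not a lower bound on the difference. For the 0 PGE1 reads the Poisson interval ran up to 0.0343 FPKM, just under the 0.0365 where the DMSO interval begins. The exact permutation p was 0.1, the smallest possible, in PGE1 against DMSO cells and 0.2 in dKO against WT cells. With no filter on low values, limma called Hpgd lower in PGE1 against DMSO cells (log2 difference −0.11, adjusted p = 0.0065) and in PGE1 against PGE2 cells (−0.14, adjusted p = 0.00375), on the 0 reads of PGE1 libraries against 9 and 7.

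Alox5 and Alox5ap, the 2 proteins of the first leukotriene step, moved in opposite directions in dKO cells and in the same direction in PGE1 cells. Alox5 measured 29.4, 20.0 and 22.4 FPKM in dKO cells and 12.6, 12.4 and 10.6 in WT cells. Every dKO library lay above every WT library, replicate 1 highest. Alox5 was 2.02-fold higher (log2 difference 0.94, SE 0.13, limma adjusted p = 0.00118), and 0.79 on the log2 scale without dKO replicate 1. Alox5ap measured 111.5, 110.0 and 105.8 FPKM in dKO cells and 155.4, 155.2 and 162.9 in WT cells. These groups were tight and well apart, with a fall of 0.53 (SE 0.04, limma adjusted p = 4.12e-05). The ratio of Alox5ap to Alox5 FPKM was 3.79, 5.49 and 4.72 in dKO libraries and 12.3, 12.5 and 15.4 in WT libraries.

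Under PGE1, Alox5 measured 20.5, 20.1 and 19.3 FPKM, against 14.3 and 15.0 in PGE2 cells and 16.9, 16.6 and 16.5 in DMSO cells. PGE1 libraries lay above DMSO libraries and PGE2 libraries below them. The log2 difference was 0.24 in PGE1 against DMSO cells (SE 0.06, limma adjusted p = 0.00612) and −0.17 in PGE2 against DMSO cells (95% interval −0.31 to −0.03, limma adjusted p = 0.152). Alox5ap measured 286.1, 389.0 and 293.1 FPKM in PGE1 cells, 195.6 and 190.9 in PGE2 cells, and 230.7, 205.8 and 204.6 in DMSO cells. PGE1 replicate 2 was the highest library, and the other 2 PGE1 libraries still lay above all DMSO libraries. The rise was 1.51-fold (log2 difference 0.58, SE 0.12, limma adjusted p = 0.00403). In DMSO against WT cells both genes were higher, Alox5 by 0.46 and Alox5ap by 0.43 on the log2 scale (limma adjusted p = 0.000629 and 0.000409).

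The vehicle comparison gave further differences among the members, with the same limit on what separates the 2 sets of libraries. Ptges averaged 0.435 ± 0.0437 FPKM in DMSO and 0.174 ± 0.0154 in WT cells (SD, n = 3 each; exact permutation p = 0.1, the smallest possible), and limma with no filter on low values called it (adjusted p = 0.00107). Tbxas1 and Hpgds differed by 0.09 and 0.15 on the log2 scale in DMSO against WT cells (limma adjusted p = 0.13 and 0.183). Ptgs1 differed by −0.09 (limma adjusted p = 0.136, and 0.0363 without DMSO replicate 1) and Ptges3 by −0.16 (0.0537, and 0.00164 without DMSO replicate 1). Hpgd libraries overlapped (exact permutation p = 0.8).

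Neutrophil markers did not follow 1 direction with this pair. In dKO cells 5 of 12 were higher and 6 lower, and the summed level was 11100 to 11300 FPKM in dKO against 8200 to 8560 in WT libraries. In PGE1 cells 9 of 12 were lower, with sums of 1940 to 2970 FPKM against 5350 to 6360 in DMSO libraries, while Alox5 and Alox5ap were higher. Of all genes tested, 18% were called higher and 22.9% lower in dKO cells, and 23.6% higher and 25.5% lower in PGE1 cells. Eosinophil markers summed to 187 to 232 FPKM in dKO and 190 to 200 in WT libraries, and to 2.39 to 25.7 in PGE1 and 63.0 to 76.8 in DMSO libraries, with 4 of 4 tested lower in PGE1 cells. No gene of these lists was at 0 in all libraries, and their part in the result was not tested.

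**Figure D4:**
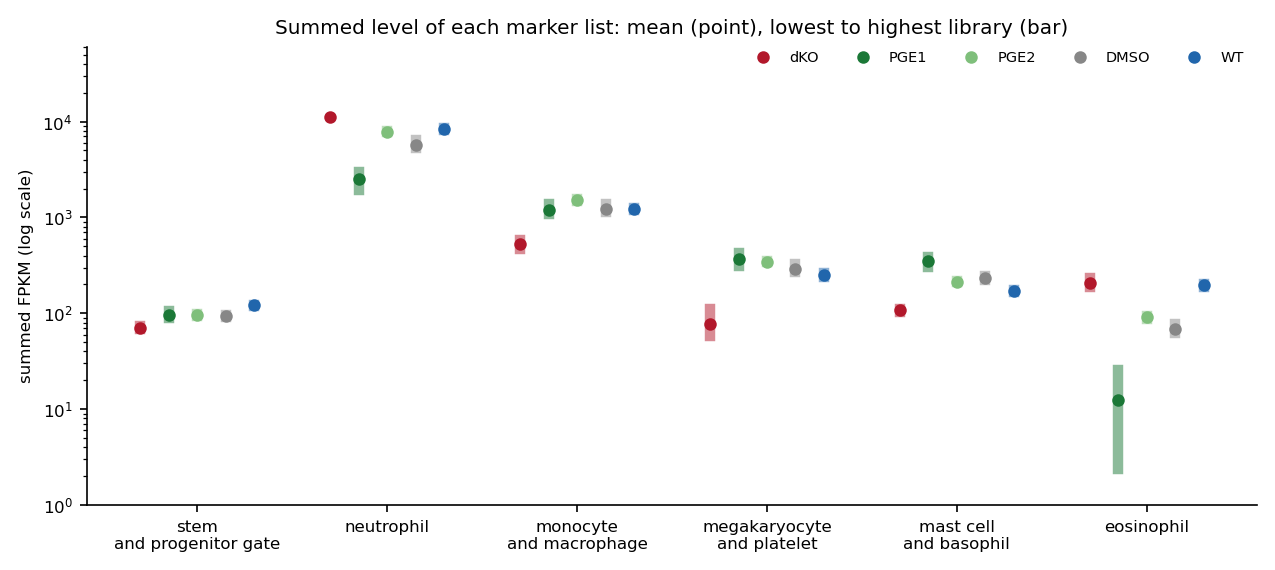
Summed FPKM of 6 marker lists (vertical axis, log scale) in dKO, PGE1, PGE2, DMSO and WT cells; points are means and bars run between the lowest and the highest library. Megakaryocyte and platelet markers summed to 57.7 to 112 FPKM in dKO against 241 to 263 in WT libraries, and neutrophil markers to 1940 to 2970 in PGE1 against 5350 to 6360 in DMSO libraries.

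PGE1 and PGE2 were given at the same dose and for the same time, and differ by a further carbon-carbon double bond in 1 side chain of PGE2. This was the 1 pair of compounds compared, in the 8 members tested. Ptgs1 showed the widest difference, at 12.9 ± 1.62 FPKM with PGE1 (SD, n = 3) and 25.3 ± 0.674 with PGE2 (SD, n = 2), a log2 difference of −0.93 (95% interval −1.15 to −0.70, limma adjusted p = 9.78e-05). Ptgs2, Alox5 and Alox5ap were higher with PGE1 by 0.56, 0.42 and 0.72 on the log2 scale (limma adjusted p = 0.0042, 0.000564 and 0.00204), and the libraries of the 2 compounds did not overlap for any of them. Tbxas1 and Ptges3 were lower with PGE1 (log2 differences −0.64 and −0.45; limma adjusted p = 0.000486 and 0.00427). Ptges2 was also lower (log2 difference −0.37, limma adjusted p = 0.0145), a call lost without PGE2 replicate 1 (0.104) or PGE2 replicate 2 (0.0514). Hpgds was 2.31 ± 0.406 FPKM with PGE1 and 2.50 ± 0.353 with PGE2 (SD, n = 3 and 2), and the 95% interval of its log2 difference ran between −0.39 and 0.22. Against DMSO, intervals for PGE2 were as wide as −0.45 to 0.17 (Alox5ap) and −0.03 to 0.51 (Ptgs2), so PGE2 differences of that size are not excluded.

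A contrast of the PGE1 difference against DMSO with the dKO difference against WT, chosen after the data were seen, was fitted over all 14 libraries. It was past the threshold for 8 of the 8 members tested, where 55.6% of all 11078 genes were. Ptgs2 reached the minimum of this fit only through the treated libraries, and its dKO and WT means of 0.365 and 0.657 FPKM were both under it. The contrast, PGE1 difference minus dKO difference, was 1.11 on the log2 scale for Hpgds and for Alox5ap, and 1.09 for Ptgs2 (limma adjusted p = 5.48e-05, 1.84e-05 and 0.000135). For Hpgds the PGE1 difference was 0.00 and the dKO difference −1.11, so its contrast repeats the dKO result. Its dKO mean of 0.375 FPKM was also under the minimum. For Alox5, higher in both comparisons, the contrast was −0.70, and for Tbxas1, lower in both, it was −0.41 (limma adjusted p = 0.00155 and 0.00336). For Ptgs1, Ptges2 and Ptges3 the contrast was −0.62, −0.50 and −0.61 (limma adjusted p = 0.000265, 0.00133 and 0.000276). The dKO difference of Ptgs1 was 0.00, so its contrast repeats the PGE1 result. Genotype was compared in the deeper untreated libraries and treatment in the shallower ones, so the set of libraries and the kind of contrast cannot be told apart.

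Around the members, 71 further genes of eicosanoid metabolism in 7 lists were examined. In dKO against WT cells 34 were tested, 5 higher and 8 lower, a share called of 38.2% that is close to the 40.9% of all genes. Of the leukotriene genes downstream of Alox5, 2 of 9 tested were higher and 5 lower. Lta4h, the hydrolase that makes leukotriene B4, averaged 353 ± 5.96 FPKM in dKO and 278 ± 6.43 in WT cells (SD, n = 3 each; limma adjusted p = 0.000259). Mgst2, a microsomal glutathione transferase able to make leukotriene C4, averaged 122 FPKM in dKO and 85.2 in WT cells. Dpep2, a dipeptidase that trims cysteinyl leukotrienes, averaged 0.822 FPKM in dKO and 6.77 in WT cells (limma adjusted p = 9.04e-06). Cyp4f18, a leukotriene B4 hydroxylase, averaged 0.330 FPKM in dKO and 3.77 in WT cells (limma adjusted p = 2.61e-06). Both genes were under 1 FPKM in dKO cells and reached the tested minimum only through the WT libraries. Mgst1, Mgst3 and Cyp4f13 were lower too.

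Among the genes that release or remodel arachidonate, 2 of 10 tested were higher in dKO cells (Pla2g12a and Mgll) and 2 lower. Pla2g7, a secreted phospholipase that degrades platelet-activating factor, averaged 0.261 FPKM in dKO and 5.54 in WT cells (limma adjusted p = 1.24e-05), and it too reached the tested minimum only through the WT libraries. Pla2g6 was the other that fell. Fam213b, a prostaglandin F synthase, was lower and the transporter Slco4a1 higher. Of 13 listed receptors 6 were tested in dKO against WT cells and limma called 0 of them, with 1 at an unadjusted p under 0.05 and 1 called, lower, by limma-voom. Alox15, the other lipoxygenase gene with a level near 1 FPKM, averaged 0.0214 FPKM in dKO, 0.102 in PGE1, 1.70 in PGE2, 0.908 in DMSO and 1.27 in WT cells, below the tested minimum in the fits of dKO against WT and of the treated cells. In DMSO against WT cells it was tested and called lower (log2 difference −0.25, limma adjusted p = 0.0304), with a DMSO mean under the minimum.

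In PGE1 against DMSO cells 37 of the 71 genes were tested, 11 higher and 13 lower (64.9% called, against 49.1% of all genes). Of 9 tested leukotriene genes downstream of Alox5, 2 were higher (Mgst2 and Cyp4f13), 1 was lower (Lta4h) and 6 did not pass, with a median log2 difference of 0.17. Lta4h averaged 63.7 ± 17.3 FPKM in PGE1 and 174 ± 12.1 in DMSO cells (SD, n = 3 each; limma adjusted p = 0.000119). Of 7 tested receptors, 3 were higher and 3 lower. The leukotriene B4 receptor gene Ltb4r1 averaged 10.1 FPKM in PGE1 and 38.6 in DMSO cells (limma adjusted p = 7.38e-06). Ptger2 and Ptgir averaged 5.48 and 13.1 FPKM in PGE1 cells, against 1.505 and 6.997 in DMSO cells (limma adjusted p = 9.2e-06 and 5.57e-05). Ptger3 averaged 3.04 FPKM in PGE1 and 7.97 in DMSO cells (limma adjusted p = 1.57e-05). Ptger4 was lower and Ptger1 higher by smaller amounts. Ptgr1, a reductase that inactivates prostaglandins and leukotriene B4, averaged 122 FPKM in PGE1 and 56.9 in DMSO cells (limma adjusted p = 0.000203). Akr1c18, an aldo-keto reductase, averaged 0.972 FPKM in PGE1 and 5.19 in DMSO cells. Its PGE1 mean was under the tested minimum, which it reached only through the DMSO and PGE2 libraries.

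Arachidonate release split evenly in PGE1 cells, with 3 of 9 tested genes higher and 3 lower. Pla2g7 averaged 24.5 FPKM in PGE1 and 9.01 in DMSO cells, Pla2g12a 4.15 in PGE1 and 13.6 in DMSO cells, and Mgll, the monoacylglycerol lipase, 0.381 in PGE1 and 2.39 in DMSO cells (limma adjusted p = 9.17e-06, 0.000167 and 4.62e-05). Mgll was under 1 FPKM in PGE1 cells and reached the tested minimum only through the DMSO and PGE2 libraries. Abcc1, an exporter of leukotriene C4, averaged 59.2 FPKM in PGE1 and 35.0 in DMSO cells. In PGE2 against DMSO cells limma called 5 of 37 tested genes lower and 0 higher (13.5% called, against 5.57% of all genes), with 3 higher at an unadjusted p under 0.05 and 0 higher by limma-voom. Ephx2, the soluble epoxide hydrolase, averaged 0.395 FPKM in PGE2 and 2.24 in DMSO cells (limma adjusted p = 0.000253). It was also low in PGE1 cells, at 0.297 FPKM (limma adjusted p = 1.13e-05 against DMSO), and in untreated WT cells, at 0.327. Ephx2 reached the tested minimum of the treated fit, and of DMSO against WT, only through the DMSO libraries. Ptger4 averaged 2.42 FPKM in PGE2 and 4.83 in DMSO cells (limma adjusted p = 0.0105). Mgst3 averaged 10.5 FPKM in PGE2 and 18.9 in DMSO cells, Slco4a1 15.2 in PGE2 and 24.9 in DMSO cells, and Akr1c18 2.52 in PGE2 and 5.19 in DMSO cells (limma adjusted p = 0.0186, 0.0237 and 0.0492). Of these 5 genes all but Mgst3 were called lower in PGE1 against DMSO cells too. All 5 were called higher in DMSO against WT cells, where Akr1c18 reached the minimum only through the DMSO libraries. Ptger4, Mgst3, Slco4a1 and Akr1c18 averaged 2.50, 10.5, 15.9 and 0.461 FPKM in WT cells. In DMSO against WT cells 19 of 40 tested were higher and 9 lower, and 56.6% of all genes were called.

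**Figure D5:**
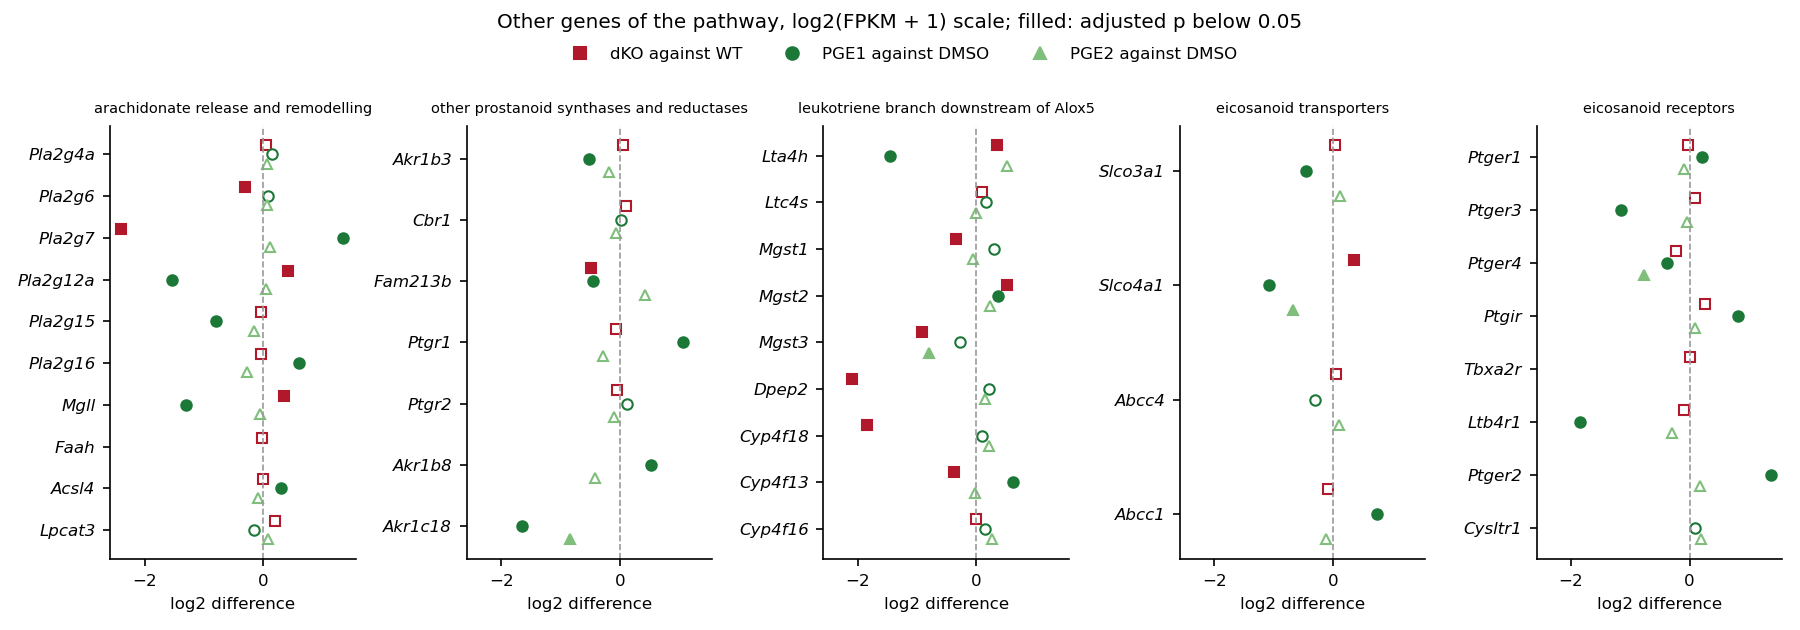
Log2 differences (horizontal axis, log2(FPKM + 1) scale) of further eicosanoid genes in 5 lists, for dKO against WT (squares), PGE1 against DMSO (circles) and PGE2 against DMSO (triangles); filled symbols passed an adjusted p of 0.05. Lta4h lay at 0.35 in dKO against WT and at −1.46 in PGE1 against DMSO.

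The genes whose levels followed each member most closely over the 14 libraries were listed as a description, for members averaging at least 5 FPKM. The points share 5 groups and 2 depths, so a high correlation can come from the group differences alone. Alox5ap had its nearest patterns in Tnfaip8l2, Lyn and Hcls1 (Pearson r of 0.994, 0.992 and 0.991 on log2(FPKM + 1)). Ptges3 was nearest to Eif4a1, Snrpa1 and Slc25a4 (0.986, 0.985 and 0.984), and Ptges2 to Wdr61, Polr3k and Twistnb (0.981, 0.978 and 0.975). Ptgs1 was nearest to Rrbp1, Ctsc and Hk2 (0.967, 0.965 and 0.964), and Tbxas1 to Irf2bp2, Ly86 and Rpl10a (0.966, 0.955 and 0.948). Alox5 had the loosest neighbours, H2-Q7, H2-Q9 and Nploc4 (0.917, 0.915 and 0.865).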

How the data were processed

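RNA-seq libraries of sorted LSCs were analysed from the gene-level FPKM values that the authors deposited, 1 file per library. Per the submitters' processing notes, CASAVA 1.8, TopHat and Cufflinks were used with the mouse build mm9; the annotation, strand handling and treatment of shared reads are not stated there. The reference at hand was a later build, so no gene coordinates are given besides RefSeq promoters. Exons of Ptgs1, Tbxas1 and Alox5ap overlap opposite-strand genes there, whose reads cannot be told apart without strand.

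Whole reads were recovered from the FPKM values of 19057 genes (100% of them within 0.01 of a read). The length of each gene was taken as the common denominator of its own values. For genes with reads in few libraries the 100% is therefore no independent check. Reads that share a factor with the length can be understated there. Genes that averaged 1 FPKM or more across a fit's libraries entered two-sided tests in limma (version 3.58.1, under R 4.3.3; lmFit and eBayes, trend on) with a pseudocount of 1 before taking log2. Adjustment was by Benjamini-Hochberg over all genes tested, with 0.05 as the threshold. Log2 differences on this scale understate changes of low genes. dKO with WT, the 3 treated groups, and DMSO with WT were separate fits. Members under the minimum were compared on FPKM by exact permutation, two-sided (scipy 1.17.1); 0.1 is the smallest p for 3 against 3 libraries and 0.2 for 3 against 2. The members, lists and tests were chosen with earlier results of these data known. Named genes were the members, the called genes of 7 pathway lists (up to 5 of smallest adjusted p per list and comparison) and the 3 nearest patterns per member, clone-type symbols left out. Alternatives were another pseudocount, other minimum levels, quantile and median-of-ratios scaling, a replicate block and leaving out each library; limma-voom on the recovered reads, and leaving out DMSO replicate 1 with PGE1 replicate 2, were added after seeing the data. Figures used Python 3.11.15 with matplotlib 3.10.9.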

Additional observations from a re-analysis of the deposited data

How the results depend on the processing

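Of 572 values for members tested in both settings, 549 kept their side of the threshold with no called value changing direction, 17 lost the call and 6 gained one. The sign changed in 18 values that were not called under either setting, all within 0.0868 of 0 (Hpgds and Ptges3 in treated cells, Ptgs1 in dKO against WT). Lost and gained calls among these values concerned Ptges2, Ptges3 and Ptgs1. Hpgds could not be tested in dKO against WT without WT replicate 2, nor in any comparison with a minimum of 5 FPKM, which Ptgs2 missed in DMSO against WT. With no filter, members under the minimum gained calls: Ptges in dKO against WT and DMSO against WT, and Hpgd in PGE1 against DMSO and against PGE2. In DMSO against WT cells the call of Ptges2 (adjusted p = 0.0477) was lost with no filter on low values (0.0912) and without each of 5 libraries, and Ptges3 (0.0537) gained a call with a minimum of 5 FPKM (0.0483), quantile normalization (0.0412) and without DMSO replicate 1 (0.00164).

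Leaving out each library in turn, the members called ran between 4 and 6 in dKO against WT, 6 and 7 in PGE1 against DMSO, 0 and 1 in PGE2 against DMSO, 6 and 7 in PGE1 against PGE2, and 3 and 6 in DMSO against WT. For PGE2 against DMSO the count of all genes called, 626, ran between 125 (without PGE2 replicate 2) and 1218 (without PGE1 replicate 2), and was 1763 with DMSO replicate 1 and PGE1 replicate 2 left out together, where 1 member, Ptgs1, was called (adjusted p = 0.0248). The cause was not tested.

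Same-numbered libraries did not deviate together throughout (correlations of 0.038, 0.117 and 0.002 in dKO against WT; −0.141, −0.249 and 0.253 in PGE1 against DMSO), so the numbers were not taken to pair samples. Across numbers, DMSO replicate 1 deviated with PGE1 replicate 2 (0.409) and against PGE1 replicate 3 (−0.373). Whether these libraries share a preparation was not tested. With the replicate number as a block the members called stayed at 6, 7, 0, 7 and 4 in number, in the order of comparisons above, and all genes called were 3972, 5191, 269, 5313 and 6175. Depth limits Hpgd and Ptges, with at most 12 and 104 reads per group.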
